A study of Mus musculus with 14 samples.

Results

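The cytosolic ribosome is built from ribosomal RNA and a fixed set of ribosomal proteins, each encoded in mice by its own gene. They were taken here by symbol: Rpl or Rps followed by a number, together with Rpsa, Rplp0, Rplp1 and Rplp2. The symbols of the Rps6k kinases, of Rps19bp1 and of pseudogenes ending in -ps were left out. This gave 87 genes of 24411 in the count files, from 104 matching symbols of which 10 were Rps6k kinases, 1 was Rps19bp1 and 6 ended in -ps. By symbol, 43 of the 87 belong to the large subunit, 31 to the small subunit including Rpsa, 3 to the P-stalk (Rplp0, Rplp1, Rplp2), and 10 are paralogs such as Rps4l and Rpl22l1. The rule uses symbols and no measured value, though it was chosen with earlier results of these data known.

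Liver RNA, given as polyadenylated RNA, was sequenced from male mice aged 5 to 7 months, all carrying floxed Rbbp5 alleles (flox/flox). Rbbp5 encodes a core subunit shared by the COMPASS-type histone methyltransferases, which mark active promoters and enhancers. WT mice lacked Alb-CRE, while LKO mice (spelled both RBBP5 LKO and RRBP5 LKO in the labels) carried 1 copy of it. Alb-CRE is a recombinase driven by the albumin promoter and so active in hepatocytes. Mice of each genotype received tunicamycin at 0.05 mg/kg, an inhibitor of protein N-glycosylation that provokes stress of the endoplasmic reticulum, or vehicle only (3% DMSO in PBS), and livers were taken 8 hours later. There were 3 libraries for each of the WT groups and 4 for each of the LKO groups. Libraries 3 and 4 of the LKO vehicle group were near duplicates (chi-square per degree of freedom 1.12, against 3.38 to 25.9 for 17 other pairs within groups) and were summed, which left 13 samples. On this measure WT tunicamycin sample 3 stood apart from samples 1 and 2 of its group (25.9 and 25.8, against 6.23 between those). LKO vehicle library 2 gave 13.1, 14.9 and 16.5 with libraries 1, 3 and 4, against 6.68 and 7.03 for library 1 with libraries 3 and 4. Nothing in the labels states that the samples of a group are separate mice, so p-values measure the spread between these samples. No label says whether any sample pools mice.

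Between 6507018 and 13519421 sense-strand reads per library fell on genes, and 72.5 to 75.5% of them fell on Rn45s, the precursor of ribosomal RNA, which left 1704479 to 3551398 reads per library for all other genes. Read counts below are given as CPM, which are scaled to library size by trimmed means (TMM). They keep Rn45s in the denominator, which lowers the values of all other genes alike. Rbbp5 itself stood at 4.07 to 6.41 CPM in WT livers with vehicle and 5.03 to 5.71 with tunicamycin, and at 1.90 to 4.15 and 2.06 to 3.46 in the same order in LKO livers. The LKO groups were lower, with an overlap of the vehicle groups, and the reads were not restricted to the floxed part. The hepatocyte markers were all detected, summing to between 14236 and 24073 CPM per sample. 4 of the 5 red cell markers, the globin genes Hba-a1, Hba-a2, Hbb-bs and Hbb-bt, had 0 counted reads in every sample. In the deposited FPKM, described below, 2 of the 5 markers had a mean of at least 1, which takes in a globin gene. The counted zeros therefore do not show that globin RNA was absent.

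Ribosomal protein genes are known for mRNAs that begin with a C followed by an unbroken run of pyrimidines, the terminal oligopyrimidine (TOP) tract. Through the tract the protein LARP1 and the kinase mTOR set how much of the mRNA is translated, so protein output can change while the mRNA level does not. In the liver, as elsewhere, a shortage of single ribosomal proteins frees RPL5 and RPL11 to bind MDM2, which activates p53. Stress of the endoplasmic reticulum lowers translation mainly through phosphorylation of the initiation factor eIF2.

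The start of the mRNA is the part by which these genes are controlled as a class. RefSeq gave a start (build GRCm38.p6) for 66 of the 87 genes, 78 starts in all. The windows of 30 bases below run from 15 bases before to 14 after the annotated first base, on the strand of the gene. They are printed for only some of the genes named in the results, and the share with a long run is given further down over all windows. The capitals mark the longest run of C and T that begins with C.
Rps6: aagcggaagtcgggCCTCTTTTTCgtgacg
Rps12: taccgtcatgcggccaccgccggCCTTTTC
Rps26: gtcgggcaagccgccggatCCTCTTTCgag
Rplp2: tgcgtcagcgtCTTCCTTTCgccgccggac
Rpl13a: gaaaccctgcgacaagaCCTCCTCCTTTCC
Rpl39: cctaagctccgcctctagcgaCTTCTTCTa
Rplp0: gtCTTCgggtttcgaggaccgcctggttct
Rpsa: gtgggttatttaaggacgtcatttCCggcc
Rpl7l1: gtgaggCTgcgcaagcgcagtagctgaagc
These windows lie at chr4:86857353-86857382 (Rps6, minus strand), chr10:23787195-23787224 (Rps12, minus), chr10:128626492-128626521 (Rps26, minus), chr7:141447636-141447665 (Rplp2, plus), chr7:45128731-45128760 (Rpl13a, minus), chrX:37085208-37085237 (Rpl39, minus), chr5:115559452-115559481 (Rplp0, plus), chr9:120127751-120127780 (Rpsa, plus) and chr17:46782642-46782671 (Rpl7l1, minus).

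A run of at least 7 such bases, on the gene's own strand, was found in 33 of the 78 windows (42.3%), against 14.2% of the windows at all 32851 RefSeq starts. On the opposite strand it was found in 5 of the 78 windows (6.41%), against 15.7% of all. Within the full 300 bases of sequence per start, 250 before and 50 after, CCGGAAG, the core of sites of ETS factors, was present on either strand at 27 of 78 starts (34.6%) and at 8.86% of all starts. AAGATGG, the core of YY1 sites, was present at 12 of 78 (15.4%) and at 6.34% of all. TATAAA, the TATA box, was present at 7 of 78 (8.97%) and at 13.6% of all. The reverse complements of the ETS and YY1 cores contain pyrimidine runs and can overlap the tract. These are matches of letters. A tract missing from a window, as at the annotated starts of Rplp0 and Rpsa printed above, says only that the letters are not near the start RefSeq gives.

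Transcript levels were compared between genes per length, in the deposited FPKM (fragment counts corrected for gene length and depth). Among the 73 genes of the subunits and P-stalk that passed the filter on low counts, mean FPKM over the 13 samples, with the near-duplicate libraries averaged, ran from 0.922 to 73.7 with a median of 15.3, and 67 of the 73 lay between 5 and 50. The highest means ± SD (n = 13) were those of Rpl41 (73.7 ± 12.98), which encodes the shortest ribosomal protein, Rps29 (53.5 ± 8.17), Rpl39 (48.97 ± 7.13), Rps23 (46.2 ± 5.27) and Rps26 (44.2 ± 5.43). Each of these overlapped its neighbour in the order within 1 SD. Rps29 and Rps26 encode zinc-binding proteins of the small subunit, and Rps23 a protein of its decoding centre. The lowest means among the 79 genes that passed, paralogs included, were Rps15a (0.922 ± 0.127), Rps4l (1.06 ± 0.497), Rpl7l1 (1.91 ± 0.364), Rpl22 (3.70 ± 0.367) and Rpl22l1 (4.11 ± 1.27). Median FPKM was 14.2 for the large subunit, 15.8 for the small subunit and 19.9 for the P-stalk.

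**Figure D1:**
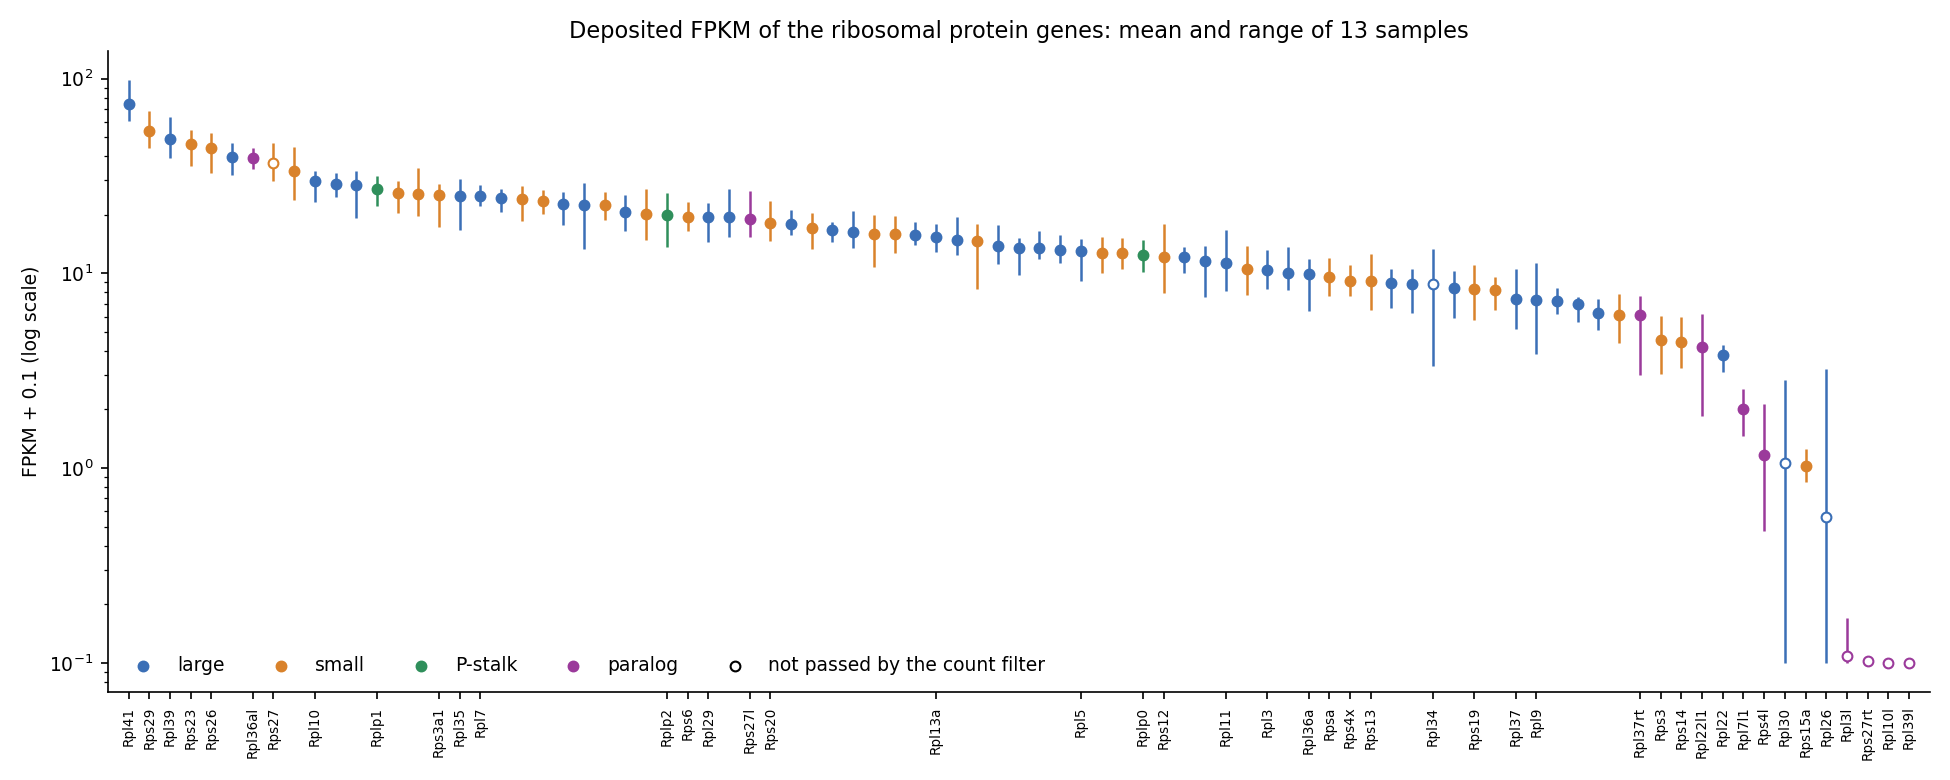
Deposited FPKM of the 87 genes, ordered by mean; points are the mean of 13 samples and lines run from the lowest to the highest sample, on a log scale after adding 0.1. Colour gives the class, names are given for the highest, lowest, paralog and P-stalk genes and others named in the text, and open points are the 8 genes that did not pass the filter on low counts. Most subunit genes lie between 5 and 50 FPKM, Rpl41 stands at the top, and 8 of the 10 paralogs are among the 14 lowest genes, while Rpl36al and Rps27l lie higher.

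Paralogs were mostly below the genes they resemble. Rps4l stood at 1.06 FPKM and its X-linked relative Rps4x at 9.07. Rpl7l1, with 1.91, was below Rpl7 (24.9). Rpl37rt had 6.02 FPKM against 7.29 for Rpl37, and Rpl22l1 had 4.11 against 3.70 for Rpl22, but counted reads per kilobase of mRNA put both paralogs lower: 32.8 against 156 for the first pair and 85.6 against 365 for the second. Rpl36al was the exception, with 38.8 FPKM against 9.77 for Rpl36a (251 and 191 reads per kilobase). Rps27l, whose transcription is known to be induced by p53, stood at 18.9 against 36.8 for Rps27. The testis paralogs Rpl10l and Rpl39l had 0 reads in all 13 samples, and the muscle paralog Rpl3l had 3 reads over all of them.

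Of the 87 genes, 8 did not pass the filter: Rpl10l, Rpl39l, Rpl3l, Rps27rt, Rpl26, Rpl30, Rpl34 and Rps27. The last 4 encode standard subunits and had 0, 0, 2 and 2 reads over all 14 libraries. In the deposited table each of these 4 shares at least 80% of its span with a second entry: Rpl26 (chr11:68901565-68904534) with Gm15772, Rpl30 (chr15:34440507-34443276) with Gm12191, Rpl34 (chr3:130726826-130730398) with Rpl34-ps1, and Rps27 (chr3:90212666-90213648) with Rps27rt. The count files set 10330 to 28936 reads per library aside as lying on more than 1 gene, without saying which. Summed FPKM over both entries averaged 38.6 at Rpl26, 10.5 at Rpl30, 46.1 at Rpl34 and 36.8 at Rps27. Nearly all of the sum stood under Gm15772 at the first locus (38.1 FPKM) and under Rps27 at the last. The counts therefore give no value for these 4 genes.

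Most of these genes have near copies elsewhere in the genome, mainly processed pseudogenes, and the counts are uncertain to that extent. For a representative transcript of each gene (GENCODE M21), the median share of 50-base words also found in transcripts of other genes was 49.3%, and 43 of 87 genes were above 50%. Rpl3l and Rpl39l shared none, Rps3 shared 2.96%, Rpl10 92.1% and Rpl9 93.3%. Counted reads per kilobase of mRNA and FPKM ranked the 73 subunit and P-stalk genes alike only in part (Spearman's rho 0.65 across genes, which are not independent replicates). In 3 of them reads per kilobase relative to FPKM exceeded 3 times the median ratio of 16.04: Rps15a (192), Rpl22 (98.6) and Rps12 (51.6). Rps15a, the lowest of the subunit genes in FPKM, had 1476 reads over all samples, so its low FPKM was not a lack of reads. In 4 genes the median ratio was more than 3 times higher than their own, the lowest being Rps20 (2.38), whose annotated transcript is 3706 bases long. The order of genes by level therefore depends on the file, and levels are compared between samples within a gene from here on.

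**Figure D2:**
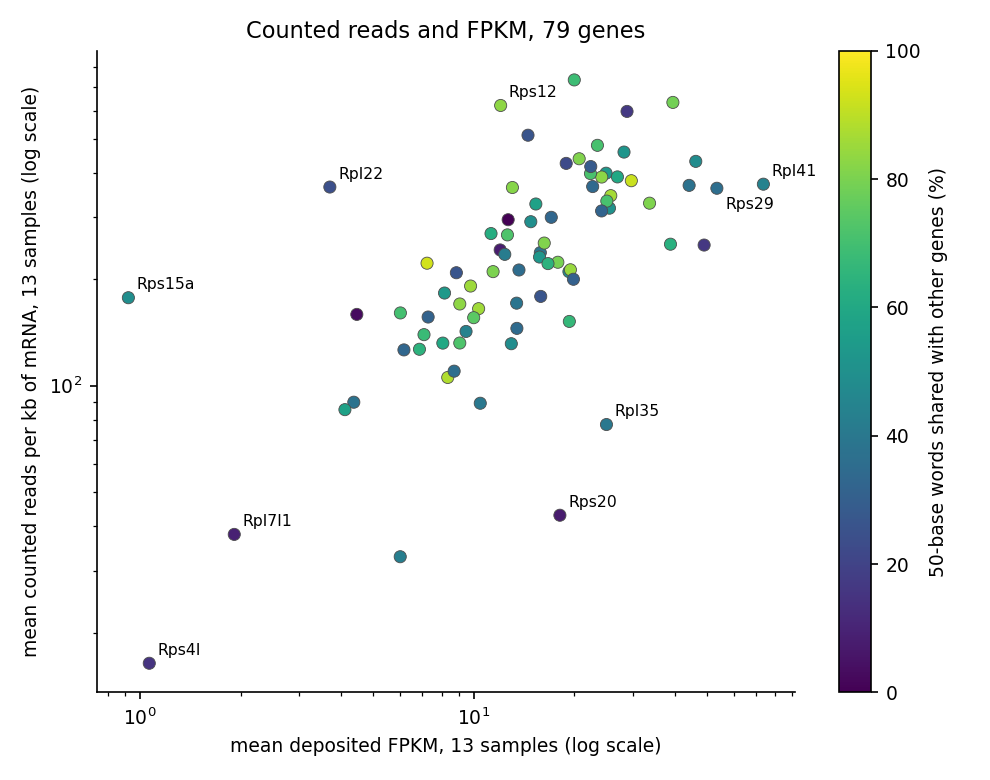
Mean counted reads per kilobase of mRNA (13 samples) against mean deposited FPKM (13 samples) for the 79 genes that passed the filter, both on log scales. Colour is the percentage of 50-base words shared with transcripts of other genes. Rps15a, Rpl22 and Rps12 lie above the main cloud, with ratios of 192, 98.6 and 51.6, and Rps20 and Rpl35 below it.

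Neither tunicamycin nor loss of Rbbp5 from hepatocytes changed any ribosomal protein mRNA past the test. At an adjusted p under 0.05 in edgeR's quasi-likelihood test, 0 of the 79 genes were called in any of the 4 pairwise comparisons or in the interaction. The same fit called 0.363% of all 9644 genes for tunicamycin in WT, 0.0311% for tunicamycin in LKO, 0.0415% for LKO against WT with vehicle, 0.861% for LKO against WT after tunicamycin and 0% for the interaction. DESeq2 called 0 of these genes in all 5, and 151, 37, 17, 137 and 0 of all 16251 genes in the same order. With so few calls anywhere, 0 of 79 is near the background, and the intervals carry more. The 95% interval of the log2 fold change lay within a 2-fold change either way for all 73 subunit and P-stalk genes tested, in each of the 4 pairwise comparisons. It lay within 1.5-fold for 70 of the 73 for tunicamycin in WT, 71 for tunicamycin in LKO, 71 for genotype with vehicle and 72 for genotype after tunicamycin. Over all genes tested, the share with an interval within 2-fold was 72.6, 84.9, 80.2 and 77.3% in the same order. These shares are not matched for level, and genes with few reads have wider intervals. At like level the spread was similar, with a median within-group SD of log2 CPM of 0.16 for the 79 genes and 0.17 for 2349 tested genes.

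Summed over the genes, the level was flat. In WT livers, the reads of the 87 genes took 0.732, 0.728 and 0.685% of sense reads outside Rn45s with vehicle and 0.671, 0.578 and 0.771% with tunicamycin. In LKO livers they took 0.725, 0.668 and 0.748% with vehicle and 0.671, 0.736, 0.686 and 0.758% with tunicamycin. The group means ± SD were 0.715 ± 0.0262 (n = 3), 0.673 ± 0.0967 (n = 3), 0.714 ± 0.0412 (n = 3) and 0.713 ± 0.0412% (n = 4), and all groups overlapped. WT tunicamycin sample 2 was the lowest of all. After TMM scaling its summed level (1776 CPM) lay inside the range of the other samples, 1732 to 2065 CPM. In bulk liver, fewer cells of a type and less RNA per cell cannot be told apart.

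**Figure D3:**
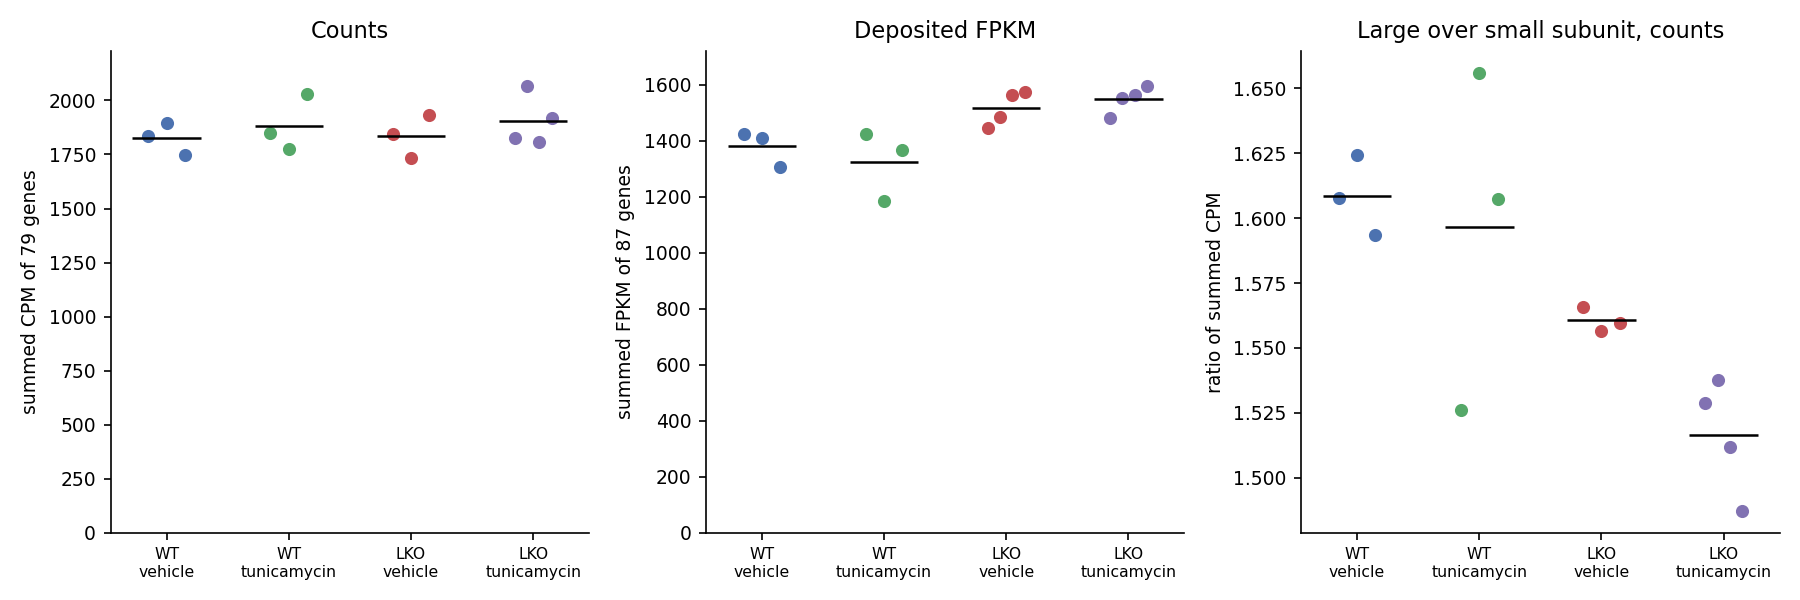
Each point is 1 sample (1 library in the middle panel) and bars are group means: summed CPM of the 79 genes that passed the filter, summed deposited FPKM of the 87 genes, and the ratio of summed CPM of large subunit and P-stalk genes to small subunit genes, on an axis that does not start at 0. Summed CPM overlaps in all 4 groups, whereas summed FPKM of the LKO libraries lies above that of the WT libraries.

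In WT livers, tunicamycin left the genes at a median log2 fold change of 0.05 (all genes tested: 0.01), with 54 of 79 above 0; with total count scaling the medians were -0.13 and -0.18, so the genes lay 0.04 above all genes on both scales. The subunit and P-stalk genes ran from -0.23 to 0.30. An unadjusted p under 0.05 was reached by 2 of the 79 genes, against 14.8% of all genes, and 7 had CPM values that did not overlap between the groups, against 17.3% of all. Both genes were higher. Rpsa, which encodes the small subunit protein also known as the laminin receptor, measured 23.0, 29.3 and 24.3 CPM with vehicle and 32.2, 30.2 and 32.3 with tunicamycin. Every treated sample was above every control, with a log2 fold change of 0.30 (95% interval 0.06 to 0.55, adjusted p = 0.222). Rplp0, the base of the P-stalk that recruits the GTPases of translation and a usual reference gene in PCR, measured 30.7, 33.4 and 30.3 CPM with vehicle and 36.9, 42.3 and 37.5 with tunicamycin. Its groups did not overlap either, with a log2 fold change of 0.30 (0.05 to 0.56, adjusted p = 0.246). The third in order was Rpl7l1, at 0.35 (-0.03 to 0.73). Among genes with a negative value, Rpl9 had the smallest p: 20.4, 21.01 and 21.7 CPM with vehicle and 17.1, 18.2 and 18.5 with tunicamycin, a log2 fold change of -0.23 (-0.53 to 0.06). Rps27l followed, at -0.18, and then the thinly covered Rpl37rt, at -0.39 (-1.08 to 0.30).

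In LKO livers, the median log2 fold change with tunicamycin was 0.06 (all genes tested: 0.00), and again 54 of 79 genes were above 0. The range over subunit and P-stalk genes was -0.30 to 0.29. An unadjusted p under 0.05 was reached by 2 genes, against 12.2% of all genes, and CPM did not overlap for 2, against 11.6%. Rps12, a protein of the beak of the small subunit, measured 41.1, 36.0 and 41.6 CPM with vehicle and 46.6, 53.7, 42.5 and 43.0 with tunicamycin. Each treated sample lay above each control, with a log2 fold change of 0.23 (0.01 to 0.45, adjusted p = 0.393). In WT livers the same gene measured 38.0, 37.2 and 36.1 CPM with vehicle and 36.9, 37.1 and 37.5 with tunicamycin, a log2 fold change of 0.00. The difference between those effects was 0.23 (-0.10 to 0.56), within its error. Rpl39, which lines the exit tunnel of the large subunit, had a log2 fold change of 0.29 (0.00 to 0.58) with overlapping groups, and Rpl3, of the peptidyl transferase region, 0.24 (-0.01 to 0.50). The smallest p among negative values were those of Rps14 (-0.30), Rpl37 (-0.21) and Rps27l (-0.16), all with intervals across 0 and overlapping groups.

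**Figure D4:**
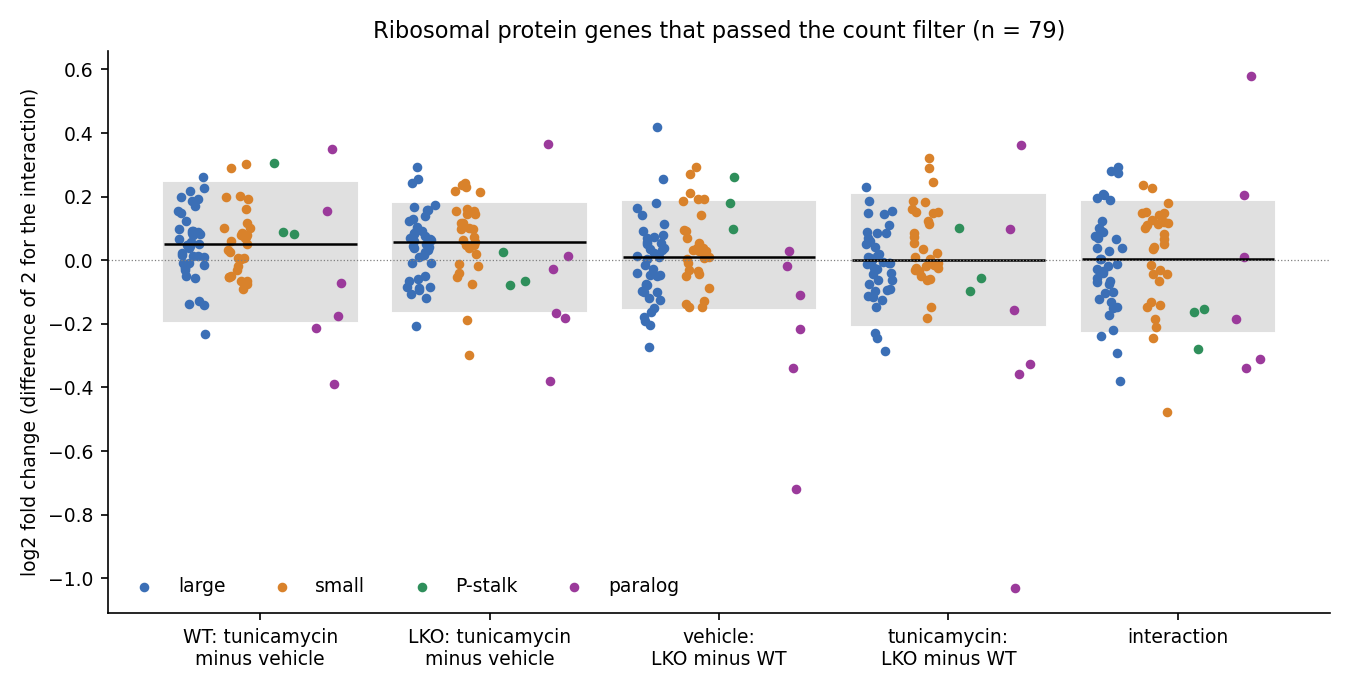
Log2 fold changes of the 79 genes in the 4 pairwise comparisons and their interaction (the LKO effect of tunicamycin minus the WT effect), 1 point per gene, coloured by class. Black bars are medians of the 79 genes, and grey boxes hold the middle of all 9644 genes from the lower to the upper quartile. Medians lie between -0.00 and 0.06, and the largest departure is Rps4l, at -1.03 in LKO against WT after tunicamycin.

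Between genotypes with vehicle, the median was 0.01 (all genes tested: 0.00) and 44 of 79 genes were higher in LKO. Subunit and P-stalk genes ran from -0.27 to 0.42. An unadjusted p under 0.05 was reached by 5 genes, 3 higher and 2 lower, against 8.15% of all genes. CPM did not overlap for 9, against 15.1%. Rpl29, a small basic protein of the large subunit, measured 8.86, 11.9 and 9.18 CPM in WT and 14.6, 12.9 and 12.8 in LKO samples. All 3 LKO samples were higher, with a log2 fold change of 0.42 (0.11 to 0.73, adjusted p = 0.461). Rplp1, a P-stalk tip protein, measured 19.2, 20.4 and 19.1 CPM in WT and 24.6, 23.8 and 22.1 in LKO, a log2 fold change of 0.26 (0.02 to 0.50). Rpsa had the same shift, at 0.27 (0.03 to 0.51), with groups that overlapped at 1 sample. This comparison and that of tunicamycin in WT share the WT vehicle samples, in which 2 of 3 values of Rpsa were the lowest of all. Rps27l measured 26.9, 29.5 and 29.9 CPM in WT and 21.1, 21.9 and 25.04 in LKO, all LKO samples lower, at -0.34 (-0.61 to -0.06, adjusted p = 0.506). Rps4l, at 2.39, 1.92 and 3.21 CPM in WT and 1.78, 1.53 and 1.31 in LKO, had a log2 fold change of -0.72 (-1.43 to -0.00). Rpl9 had -0.27 (-0.56 to 0.01) without overlap.

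Between genotypes after tunicamycin, the median was -0.00 (all genes tested: -0.01), with 39 of 79 genes higher in LKO. Subunit and P-stalk genes ran from -0.29 to 0.32. An unadjusted p under 0.05 was reached by 6 genes, 2 higher and 4 lower, against 15.8% of all genes, and CPM did not overlap for 5, against 12.9%. Rps12 was highest in LKO after tunicamycin (values above), at a log2 fold change of 0.32 (0.09 to 0.55, adjusted p = 0.172), the smallest adjusted p of any of these genes in the 5 comparisons. Rps29 had 0.29 (0.01 to 0.57) and Rps19, the gene most often mutated in Diamond-Blackfan anaemia, 0.24 (-0.04 to 0.53), both with overlapping groups. Rps4l measured 1.93, 2.92 and 2.32 CPM in WT and 2.13, 1.17, 0.611 and 0.869 in LKO. 3 of the 4 LKO samples were below all WT samples, at -1.03 (-1.79 to -0.27, adjusted p = 0.186). It is a thinly covered gene, with 201 reads over all 13 samples. Rps27l was lower in all LKO samples, with 23.5, 23.3 and 29.5 CPM in WT and 17.3, 23.2, 20.8 and 19.9 in LKO, at -0.33 (-0.59 to -0.06, adjusted p = 0.217). Rpl22, a large subunit protein that also binds RNA outside the ribosome, measured 21.5, 20.3 and 21.9 CPM in WT and 17.6, 18.2, 17.9 and 17.9 in LKO, at -0.24 (-0.47 to -0.02). Its paralog Rpl22l1 had 0.36 (-0.26 to 0.99). Of the 6 paralogs tested, 3 (Rps4l, Rps27l and Rpl7l1) had an unadjusted p under 0.05 here, all lower in LKO.

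**Figure D5:**
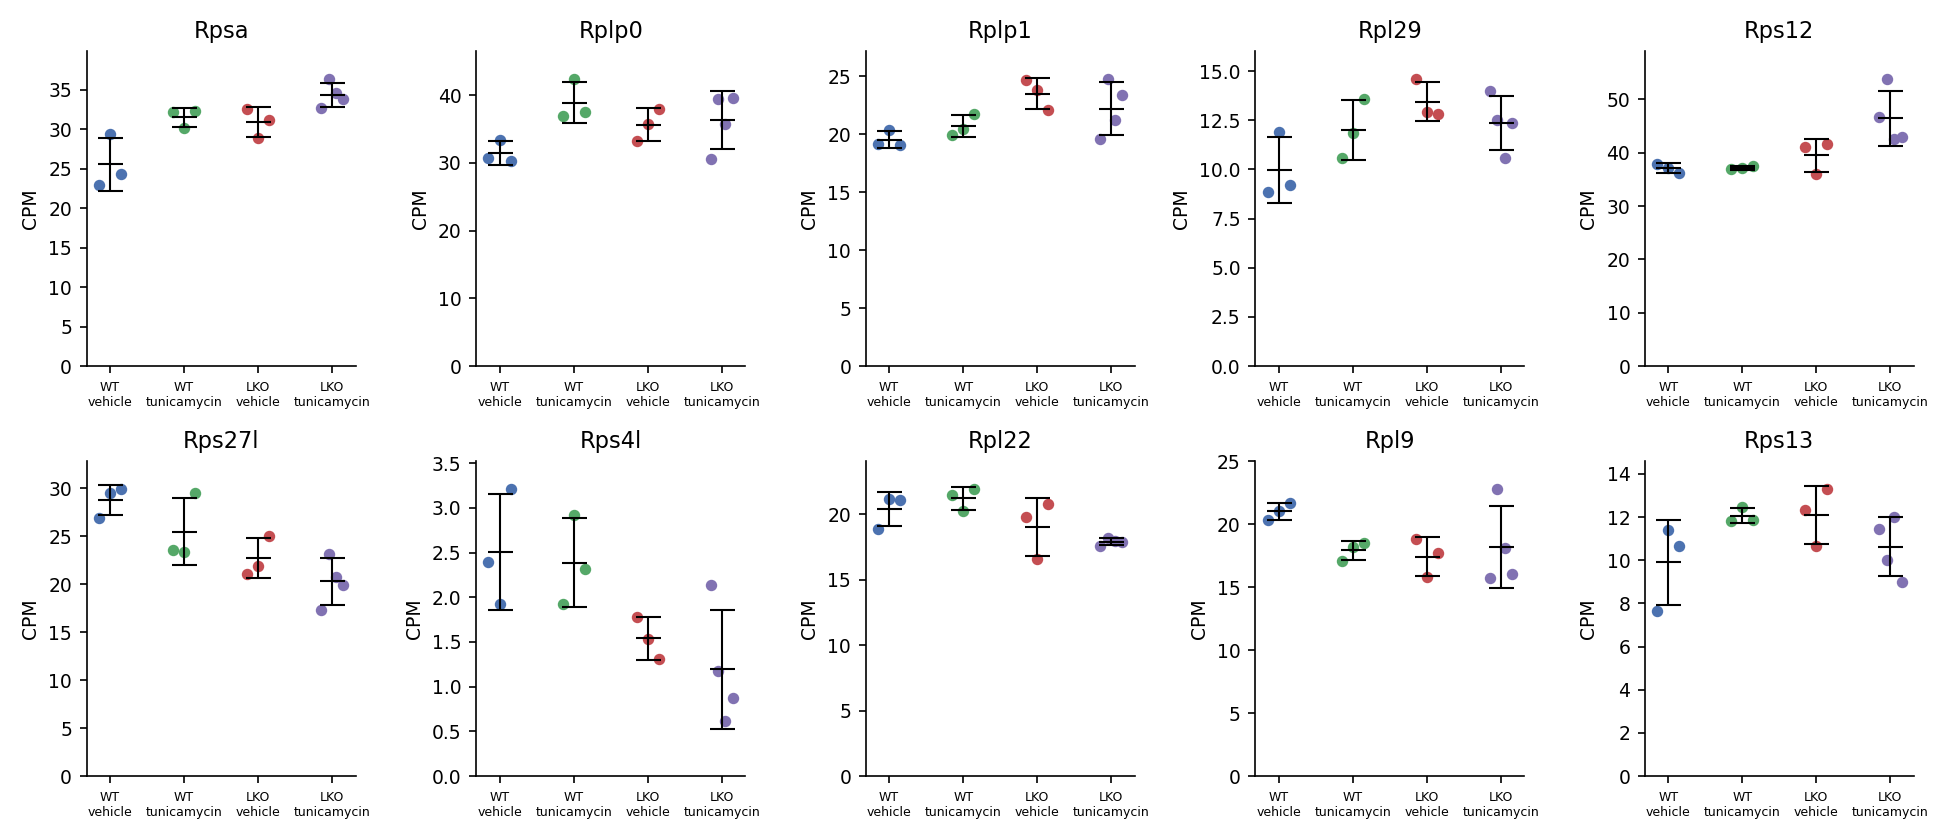
CPM per sample (points) with group mean and SD (bars) for 10 of the genes with the smallest p in a pairwise comparison or, for Rps13, in the interaction; each axis starts at 0. Rps27l lies lower in LKO samples under vehicle and after tunicamycin, Rps12 is highest in LKO after tunicamycin, and none of the 10 passed the adjusted test.

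The effect of tunicamycin did not differ between genotypes past the test for any of the 79 genes. The interaction called 0 of all 9644 genes, so this says little by itself. Its intervals were wider than those of the pairwise comparisons. They lay within 2-fold for all 73 subunit and P-stalk genes, and within 1.5-fold for 56 of the 73. The median difference was 0.00 (all genes tested: -0.02). An unadjusted p under 0.05 was reached by 1 gene, against 4.91% of all. This was Rps13, with 7.66, 11.4 and 10.6 CPM in WT vehicle, 11.8, 12.5 and 11.9 in WT tunicamycin, 12.3, 10.7 and 13.3 in LKO vehicle and 11.5, 10.02, 12.02 and 9.01 in LKO tunicamycin samples. Its difference of effects was -0.48 (-0.94 to -0.01, adjusted p = 0.968).

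Rpl5 and Rpl11, the MDM2-binding pair, had log2 fold changes between -0.10 and 0.08 in the pairwise comparisons. Rps6, the protein phosphorylated by S6 kinases, lay between -0.07 and 0.15. Rpl13a, the subunit of the interferon-regulated GAIT complex and a common reference gene, lay between -0.18 and 0.17, and Rps3a1 between -0.05 and 0.16. Rplp2 lay between -0.07 and 0.10. Of ribosomal protein genes that the symbols miss, Fau (encoding RPS30) and Gnb2l1 (now Rack1) had values from -0.11 to 0.10 in the pairwise comparisons, and neither was called in any comparison.

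The median log2 fold change was 0.05 for 40 large and 0.06 for 30 small subunit genes with tunicamycin in WT, 0.06 and 0.10 in LKO, -0.00 and 0.03 for genotype with vehicle, and -0.01 and 0.03 for genotype after tunicamycin. The ratio of summed CPM of large subunit and P-stalk genes to that of small subunit genes was 1.61, 1.62 and 1.59 in WT vehicle, 1.53, 1.66 and 1.61 in WT tunicamycin, 1.57, 1.56 and 1.56 in LKO vehicle, and 1.53, 1.54, 1.51 and 1.49 in LKO tunicamycin. The LKO tunicamycin samples were lower than the LKO vehicle samples without overlap, and the LKO vehicle samples were lower than the WT vehicle samples without overlap. After tunicamycin, 2 of the 4 LKO samples were above the lowest WT sample. A ratio over chosen genes carries no test. In the deposited FPKM the same ratio overlapped in both cases (1.31, 1.42, 1.30 and 1.29 in LKO tunicamycin, 1.32 to 1.38 in LKO vehicle and 1.33 to 1.36 in WT vehicle libraries).

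From sample to sample within a group, these genes moved together. The median Pearson correlation of log2 CPM between pairs, after subtracting group means, was 0.30 over the 79 genes, 0.37 within the large subunit, 0.31 within the small subunit and 0.33 between them. It was 0.00 among 2349 tested genes of the same range of levels. Among 76 mitochondrial ribosomal protein genes it was 0.03, but these were not matched for level. The mitochondrial list summed to 337 to 412 CPM per sample, against 1732 to 2065 CPM for the 79 genes. All pairs share the same 13 samples and the same scaling, and these correlations are a description across genes. In size, the spread was like that of other genes. The median within-group SD of log2 CPM was 0.16 for the 79 genes and 0.17 for the 2349 genes of like level. In WT vehicle samples the median deviation of the 79 genes was 0.01, 0.00 and -0.12, and in LKO tunicamycin samples -0.02, 0.17, -0.04 and 0.06. The SD of these sample medians within groups was 0.09, which is larger than each of the 5 median fold changes.

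The deposited FPKM gave another picture between genotypes. Summed FPKM of the 87 genes was 1425, 1412 and 1309 in WT vehicle and 1425, 1185 and 1368 in WT tunicamycin libraries. In LKO it was 1448, 1487, 1566 and 1574 with vehicle and 1484, 1554, 1563 and 1595 with tunicamycin. Every LKO library was above every WT library. On the log2(FPKM + 1) scale, in limma's test on 4495 entries with mean FPKM of at least 1, the median over 78 of these genes was 0.13 for genotype with vehicle (counts: 0.01) and 0.22 for genotype after tunicamycin (counts: 0.00). The medians of all 4495 entries were 0.02 and 0.07. After tunicamycin 70 of the 78 were higher in LKO, and 21 of them had an unadjusted p under 0.05. On this scale 17.2% of all entries had such a p in either direction. None passed adjustment (smallest adjusted p = 0.0828, Rps12, at 0.64). The gap between FPKM and counts was alike in 40 genes with over 50% of their 50-base words shared (0.22 against -0.01) and in 38 with fewer (0.21 against 0.02). The LKO vehicle 2 column of the FPKM table stands apart, with a highest value of 27271 against 67201 to 73383 in the other columns, and without it the vehicle median over 80 entries was 0.12. What separates the FPKM from the counts was not tested. Rps12 (higher) and Rps4l (lower, -0.61) had the same sign in LKO after tunicamycin in both files, while Rpl9 was 0.02 in counts and 0.58 in FPKM.

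Other genes of the pathway were taken from lists and described by counts, in the same fit. With 51 ribosome biogenesis factors, of which 49 were tested, 0 were called in any comparison. After tunicamycin 45 of the 49 were lower in LKO than in WT, with a median log2 fold change of -0.34 (all genes tested: -0.01) and 16 (32.7%) at an unadjusted p under 0.05, all lower, against 15.8% of all genes in either direction. The smallest p were those of Heatr1 (-0.53 ± 0.14, SE), of the small subunit processome, Nop58 (-0.74 ± 0.20), a core protein of box C/D snoRNPs, and Wdr43 (-0.69 ± 0.19), with adjusted p from 0.0841 to 0.0876. In the same fit tunicamycin gave a median of 0.19 in WT and -0.11 in LKO, and the genotype with vehicle 0.01. The comparisons share groups, and the WT tunicamycin samples enter both the first of these and the comparison of genotypes. Among those samples is WT tunicamycin sample 3, which stood apart from its group in the counts. Under 4 other scalings the median of genotype after tunicamycin stayed between -0.35 and -0.20, and that of tunicamycin in WT lay between 0.01 and 0.19. On the log2(FPKM + 1) scale, over the 16 factors with mean FPKM of at least 1, these medians were -0.09 and -0.00. The structural ribosomal proteins had a median of -0.00 where the factors had -0.34. Whether the lists differ carries no test here.

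Among 12 tested genes of RNA polymerase I and its factors, 3 had an unadjusted p under 0.05 between genotypes after tunicamycin, all lower in LKO (Twistnb, Rrn3 and Polr1c), which is 25% of them against 15.8% of all genes, and 0 were called. In DESeq2's test, Twistnb was called higher with tunicamycin in WT (0.81, adjusted p = 0.0405). Of 19 tested TOP mRNAs outside the ribosome, such as translation factors, 0 were called in any comparison. Only Eif4b, in LKO with tunicamycin (-0.36), had an unadjusted p under 0.05. Of 26 tested regulators of TOP mRNA translation and growth, 0 were called. With tunicamycin in WT, 6 (23.1%) had an unadjusted p under 0.05, 3 higher and 3 lower, against 14.8% of all genes. Mtor (0.41) and Tsc1 (-0.42) were among them. Between genotypes after tunicamycin it was also 6 (23.1%), 3 higher and 3 lower in LKO, against 15.8%. With tunicamycin in LKO it was 3 (11.5%), 1 higher and 2 lower, against 12.2%. Deptor, an inhibitor of mTOR, had -0.50 ± 0.12 (SE, adjusted p = 0.0795) with tunicamycin in WT and -0.37 ± 0.11 (adjusted p = 0.242) in LKO. The test decided its call: DESeq2 called it lower in WT (adjusted p = 0.00194) and in LKO (0.0440), and edgeR with total count scaling called it in WT (-0.69, adjusted p = 0.0345) and not in LKO (0.258). Of 76 mitochondrial ribosomal protein genes, 0 were called, and 58 were lower in LKO after tunicamycin, with a median of -0.17 that lay between -0.17 and -0.01 under the other scalings. Ribosome quality control and nuclear import genes had 0 of 17 called, with medians from -0.20 to 0.13.

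Markers of other cells moved beside some of these comparisons. With tunicamycin in LKO, 5 of 8 macrophage markers had an unadjusted p under 0.05, all higher and none called (all genes: 12.2%), and their summed CPM ranged over 36.3 to 58.5 with vehicle and 54.2 to 109 with tunicamycin. In WT all 8 were also higher with tunicamycin (median log2 fold change 0.24), with 0 at an unadjusted p under 0.05. In LKO against WT, 3 of 7 stellate cell and fibroblast markers were at an unadjusted p under 0.05, all higher, both with vehicle (all genes: 8.15%) and after tunicamycin (all genes: 15.8%). None was called, while DESeq2 called Col1a1 with vehicle (2.65, adjusted p = 0.000487). With tunicamycin in WT, 2 of the 7, Col1a1 (1.57) and Pdgfrb (0.91), were higher at an unadjusted p under 0.05 (all genes: 14.8%). Neither was called there. The summed CPM of this list was 67.4 to 110 and 94.5 to 130 in the WT groups and 116 to 157 and 107 to 169 in the LKO groups. Both tested neutrophil markers, S100a8 and S100a9, had an unadjusted p under 0.05 with tunicamycin, higher in WT (3.45 and 2.09) and in LKO (1.57 and 2.58), against 14.8 and 12.2% of all genes, and neither was called. The summed CPM of the neutrophil list was 0.256 to 1.02 with vehicle and 0.309 to 8.94 with tunicamycin in WT, and 0.948 to 2.77 and 4.23 to 7.68 in LKO. Of 2 tested bile duct markers, Spp1 had an unadjusted p under 0.05 between genotypes, higher in LKO in vehicle samples (2.23) and in tunicamycin samples (1.36), and with tunicamycin in WT (1.68), and was not called. That list summed to 8.60 to 11.7 and 8.49 to 42.5 CPM in the WT groups and 17.7 to 55.4 and 36.1 to 111 in the LKO groups. Alas2, the only tested red cell marker, had -0.52 with tunicamycin in WT and in LKO, at an unadjusted p of 0.0128 and 0.00677 in edgeR's test, and was not called. None of 8 endothelial markers or of 1 tested lymphocyte marker was called. Of 7 hepatocyte markers, Hnf4a was called in the comparison of genotypes after tunicamycin, with LKO below WT (-0.54, adjusted p = 0.0405). That call was lost with total count scaling (-0.39, adjusted p = 0.116) and with total counts outside Rn45s (-0.46, adjusted p = 0.0967). DESeq2 also called Serpina1c there (-0.54, adjusted p = 0.00409). The part of these shifts in the values of single ribosomal protein genes was not tested.

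Many small nucleolar RNAs, which guide the modification of ribosomal RNA, are processed from introns of ribosomal protein genes. GENCODE M21 places 58 of them inside 30 of the 87 genes on the same strand. The count files list 33, of which 32 had reads (3855 over all samples) and 12 passed the filter. Their summed level was 29.3 to 50.3 CPM in WT vehicle, 23.4 to 69.2 in WT tunicamycin, 23.4 to 53.8 in LKO vehicle and 18.7 to 28.8 in LKO tunicamycin samples. The other 79 snoRNA genes went with them, at 84.3 to 144, 54.2 to 200, 73.8 to 212 and 59.3 to 91.2 CPM. The groups overlapped in each of the 4 pairwise comparisons, and the host genes ran from 716 to 866 CPM over all samples. The RNA was given as polyadenylated, and how far such libraries take in small nucleolar RNAs was not tested. These sums are therefore not a measure of their amount in the liver.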

How the data were processed

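Per the submitters' processing notes, Trimmomatic, STAR and Cufflinks were used with build mm10; their versions and settings are not given in the sources used here. The count files hold unnormalized STAR counts of reads per gene as the authors deposited them, and the column of the sense strand (99.5 to 99.6% of stranded reads on genes) was used. The deposited FPKM table was made by the authors and covers the same 14 libraries; 0 columns of other samples were left unused. Reads that fit several places or several genes stand in rows of their own, per the file headers, and are in no gene's count.

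LKO vehicle libraries 3 and 4 were summed. Genes were filtered by edgeR's filterByExpr (9644 tested), scaled by TMM, and fitted with 1 mean per group by edgeR 4.0.16 (glmQLFit, glmQLFTest; R 4.3.3), with 9 residual degrees of freedom and Benjamini-Hochberg adjustment over all genes tested. SEs are |log2 fold change| over the square root of F, and 95% intervals use the t quantile. A shift in the scaling moves all genes alike. FPKM were tested with limma 3.58.1, with LKO vehicle libraries 3 and 4 entered as their mean. DESeq2 1.42.0 was an alternative, with other scalings, filters, strands, a replicate block and each sample left out. On simulated counts for tunicamycin in WT, with 200 genes changed 2-fold, 72.0% were called and 95.2% of intervals held the true value. Named are the 3 higher and 3 lower genes of smallest p in each pairwise comparison, the 5 highest and 5 lowest in FPKM, paralogs, P-stalk genes, Rpsa, Rpl5, Rpl11, Rps6, Rps19, Rpl13a, Fau and Rack1; other names were chosen after their values were seen, and some genes are not reported here. The genes and lists were chosen with earlier results of these data known. Symbols of the lists missing from the files were looked up among RefSeq synonyms, which gave Gnb2l1 for Rack1 and Eftud1 for Efl1. Counting error and library preparation limit each value: subunit genes that passed had 32 to 1724 reads in a sample, with a median of 179.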

Additional observations from a re-analysis of the deposited data

Results flagged for a closer look

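Of 18 sets of 4 LKO tunicamycin samples checked for a sample far from the others (the summed share and 17 named genes), 1 was marked, where chance marks about 1 in 20. Rpl3 measured 21.7 CPM in LKO tunicamycin sample 3 and 29.0, 29.7 and 30.2 in the other 3 samples, a gap of 0.853 of the whole range (critical value 0.829).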

How the results depend on the processing

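The count of genes called stayed at 0 of those tested in all 5 comparisons under all 25 alternatives. Many alternatives called few of all genes. For tunicamycin in WT the calls were 0 of 9906 without WT vehicle sample 1 and 615 of 9941 without WT tunicamycin sample 3. A count of 0 among these genes therefore says little about stability. The replicate block called 0 of these genes as well, with medians of 0.05, 0.06, 0.01, -0.00 and -0.01. Same-numbered samples correlated at -0.118 to 0.141 over 18 pairs. These correlations, after subtracting means of groups of 3 or 4 samples, cannot exclude that the numbers pair the samples. Median log2 fold changes moved by more than the spread of sample medians (0.09) in these cases, whose cause was not tested. For tunicamycin in WT the median was -0.13 with total count scaling, where the median of all genes was -0.18, -0.079 with total counts outside Rn45s, -0.077, -0.089 and -0.075 on the 3 FPKM scales (pseudocount 1, pseudocount 0.1, no filter) and -0.077 without the LKO vehicle 2 column. That last alternative was chosen after seeing the data. For genotype with vehicle the FPKM values were 0.12, 0.13, 0.13 and 0.12 in the same order. For genotype after tunicamycin they were 0.22, 0.23, 0.22 and 0.22, and total count scaling gave 0.15. For the interaction, total count scaling gave 0.14 and the first 3 FPKM scales 0.10, 0.11 and 0.10. Leaving out 1 sample at a time, medians ranged over -0.01 to 0.09, 0.01 to 0.08, -0.04 to 0.03, -0.04 to 0.06 and -0.04 to 0.07 in the 5 comparisons; for tunicamycin in WT the median was -0.01 without WT vehicle sample 3 and -0.01 without WT tunicamycin sample 3. As a share of all reads on genes the summed level averaged 0.190 and 0.172% in WT samples (vehicle, then tunicamycin) and 0.191 and 0.192% in LKO samples. Without Rn45s and Lars2 it averaged 0.820, 0.785, 0.819 and 0.812% in the same order. Fold changes of single genes were recomputed for 24 gene results, picked for the smallest p in these same data. None of the 24 was called to begin with, so keeping the call had little room to fail. Of 600 recomputed fold changes 593 kept direction and call. The other 7 changed sign on FPKM scales: Rps27l in LKO with tunicamycin (0.015, 0.016 and 0.015) and Rpl9 in genotype with vehicle (0.20, 0.22 and 0.20, and 0.032 without the LKO vehicle 2 column). Depth limits Rps4l, Rpl37rt and Rpl22l1 most, with 201, 291 and 614 reads over all samples.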
